A study of Homo sapiens with 4 samples.

Results

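The 9 genes described here encode adhesion, cytoskeletal and matrix proteins that are widely used as markers of the mesenchymal state: VIM, CD44, FN1, CDH2, CDH11, SPARC, THBS1, LOX and TNC. They were chosen by name, as 9 of the 19970 protein-coding genes on chromosomes 1 to 22 and X, and every H3K27ac peak at their start sites and within 100 kb of their gene bodies was collected. H3K27ac ChIP-seq had been performed in MDA-MB-231 and Hs578T, established human triple-negative breast cancer (TNBC) cell lines, with 2 libraries per line. According to the labels, cells of both lines were starved in optimem for 8 h, received 10 ng/ml TWEAK, a cytokine that binds the receptor Fn14, for 48 h, and were then kept for 72 h after the cytokine had been washed off. The labels name no engineered allele. All 4 libraries had the same treatment, and libraries of untreated cells and of cells under TWEAK were not analysed here, so the values describe the chromatin of washed-off cells and not a response to TWEAK. The methods of the study call for biological replicates, but the labels do not say which cultures the libraries came from.

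Acetylation of histone H3 at lysine 27 is found at active promoters and enhancers, and long runs of it often lie over genes that are central to a cell's identity. When epithelial cells take on a mesenchymal state, they build an intermediate filament network of vimentin, exchange E-cadherin for other cadherins, and secrete a matrix of fibronectin, tenascin and crosslinked collagen. TNBC lines such as these are known for such features.

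Peak numbers were 43353 in MDA-MB-231 replicate 2, 46330 in Hs578T replicate 1 and 44920 in Hs578T replicate 2, called the large lists here. The list of MDA-MB-231 replicate 1 held only 209 peaks there, covering 0.113 Mb against 81.8 to 90.7 Mb in the large lists. This list stood apart from its own replicate and held a further 109 peaks on other sequences. Its peak names were numbered up to 3129, so most numbers were missing from the list, and why was not tested. It had 0 peaks in the window of every one of the 9 genes. The other MDA-MB-231 list lay close to the Hs578T lists, since 94.2% of its peaks overlapped one of Hs578T replicate 1, beside 93.4% for Hs578T replicate 2. Apart from the values of replicate 1 and the line means named as such, every value given for MDA-MB-231 rests on this list. Whether the library of this list came from the line on its label was not tested, since reads were not used. The values below are therefore given per list, MDA-MB-231 is in effect described by 1 library, and no difference between the lines can be tested. With 2 libraries per line, an exact two-sided permutation test could not go below p = 0.333. Read numbers were not used, so depth is unknown, and a missing peak means only that none was called. Fold enrichment, the ratio of a peak's signal to its background, is averaged over the whole peak and set against the background of that library. Its size was therefore compared only within a list, as a percentile among all peaks of that list. Where values stand in a row of 3 below, they are those of MDA-MB-231 replicate 2, Hs578T replicate 1 and Hs578T replicate 2, in that order, and a single range of distances is that of MDA-MB-231 replicate 2.

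Among the epithelial genes set beside the markers, the starts of CDH1, which encodes E-cadherin, and of the splicing regulator ESRP1 had no peak in any list. The starts of CLDN4, KRT8 and KRT18, which encode a claudin and simple-epithelial keratins, had a peak in all 3 large lists. EPCAM had one in MDA-MB-231 replicate 2 and Hs578T replicate 1, and GRHL2 in MDA-MB-231 replicate 2 alone. The luminal genes ESR1, GATA3 and FOXA1 had none, nor did the leukocyte genes PTPRC and CD3E. Of the endothelial genes, VWF and CDH5 had none, while PECAM1 had a peak of 7148 bp in MDA-MB-231 replicate 2, 374 bp in Hs578T replicate 1 and none in Hs578T replicate 2. Of the stromal genes PDGFRA, PDGFRB, LUM and DCN, only PDGFRB had a peak, of 542 to 799 bp, in all 3 large lists.

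A peak lay within 1 kb of the canonical start of 6 of the 9 markers in MDA-MB-231 replicate 2, 8 in Hs578T replicate 1, 7 in Hs578T replicate 2 and 0 in MDA-MB-231 replicate 1. The share of all protein-coding genes with such a peak was 58.1%, 58.2%, 56.4% and 0.0601% in the same lists. In Hs578T this came to 7.5 ± 0.707 markers (SD, n = 2). VIM, CD44, FN1, THBS1, LOX and TNC had a promoter peak in all 3 large lists. CDH11 had one in both Hs578T lists only, SPARC in Hs578T replicate 1 only, and CDH2 in none. The 3 genes that lacked a promoter peak in at least 1 large list were thus both cadherins and the matricellular protein gene SPARC. The markers with a peak had a median promoter peak of 4998 bp in MDA-MB-231 replicate 2, 3546.5 bp in Hs578T replicate 1 and 4207 bp in Hs578T replicate 2, beside 1792, 1898 and 1805 bp over all protein-coding genes with a peak.

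**Figure D1:**
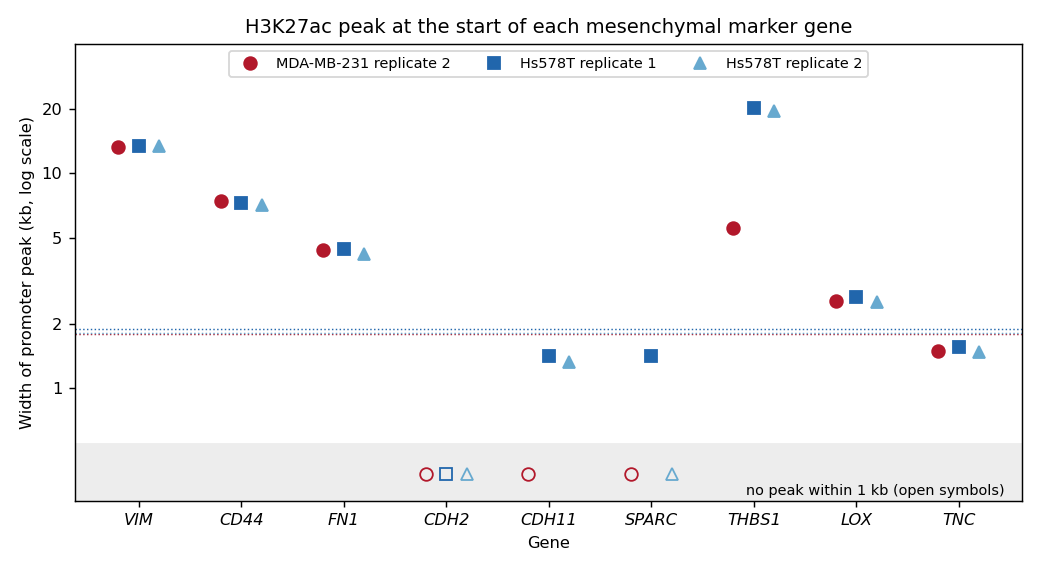
Width of the H3K27ac peak within 1 kb of the canonical start of each gene (kb, logarithmic axis) in the 3 large lists. Each symbol is 1 list, open symbols in the grey band are genes with no peak, and dotted lines give the median over all protein-coding genes with a peak. VIM, CD44, FN1 and LOX lie above the dotted lines at nearly the same width in each list, THBS1 is wider in both Hs578T lists, and CDH2 has no peak.

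The sequences just before 4 start sites are shown because they are the DNA on which this difference falls: VIM, FN1 and THBS1, where a peak ran across the start, and CDH2, where no peak was found. RefSeq promoters on GRCh38.p14 were matched for 8 of the 9 genes, all but CDH11. The 150 bases before the start are printed, with 3 kinds of word in capitals wherever either strand holds them: the GC box, spelled GGGCGG, the box spelled CCAAT, and the TEAD word, spelled GGAATG. Where such words overlap or touch, as in FN1 and THBS1, their capitals run together. VIM lies at chr10:17228091-17228240 on the plus strand.
VIM: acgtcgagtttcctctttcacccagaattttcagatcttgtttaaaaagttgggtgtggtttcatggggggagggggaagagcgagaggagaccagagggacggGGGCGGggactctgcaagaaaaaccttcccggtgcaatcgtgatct
FN1 lies at chr2:215436069-215436218 on the minus strand.
FN1: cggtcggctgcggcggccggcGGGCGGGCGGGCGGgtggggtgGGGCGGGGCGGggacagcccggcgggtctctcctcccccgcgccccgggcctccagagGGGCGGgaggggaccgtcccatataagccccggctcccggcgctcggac
THBS1 lies at chr15:39580929-39581078 on the plus strand.
THBS1: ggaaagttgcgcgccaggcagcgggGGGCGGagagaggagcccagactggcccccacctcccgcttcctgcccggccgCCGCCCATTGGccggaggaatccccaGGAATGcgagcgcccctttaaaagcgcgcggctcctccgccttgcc
CDH2 lies at chr18:28177131-28177280 on the minus strand.
CDH2: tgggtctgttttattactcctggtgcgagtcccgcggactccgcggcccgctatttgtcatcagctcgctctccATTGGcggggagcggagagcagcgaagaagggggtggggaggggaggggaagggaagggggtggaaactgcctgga

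Over the full RefSeq promoters, which run from 250 bases before to 50 bases after the start, a GC box was found in 7 of the 8 genes, all but SPARC, beside 62.6% of all 14546 promoters. FN1 held 6 of them, some overlapping, and THBS1 held 4, one of which joins its CCAAT box. CCAAT boxes were found in FN1, CDH2, THBS1 and LOX, 4 of 8, beside 37.0% of all promoters. The TEAD word was found in SPARC and THBS1, beside 11.1%, and the cyclic AMP response element TGACGTCA in FN1 alone, beside 2.86%. The AP-1 words TGACTCA and TGAGTCA and the NF-kB motif were found in 0 of the 8 promoters, beside 3.50% and 6.42% of all promoters. The exact TATA-box word TATAAA and the E-box CACCTG or CAGGTG, read by SNAI and ZEB factors, were likewise found in 0. Over all promoters, these were found in 9.48% and 19.5%. Other spellings of the TATA box, such as the atataa in the FN1 sequence above, were not counted. All motifs were searched on both strands. Outside these promoter sequences, the AP-1 words in peaks that lay nearest to a start were 288 bp after that of VIM and 876 bp before that of TNC. CpG dinucleotides numbered 10 in the promoter of VIM, 11 in SPARC, 18 in CD44 and TNC, 19 in LOX, 23 in CDH2, 29 in THBS1 and 38 in FN1. The median over all promoters was 28 where a peak was present and 9 where none was, in each of the 3 large lists. Around its canonical start, VIM, with its long peak, thus had fewer CpG dinucleotides than CDH2, which had no promoter peak. They were not counted around a further annotated VIM start, 1037 bp downstream under the same peak.

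VIM encodes vimentin, the intermediate filament protein of mesenchymal cells. Its promoter peak was 13203 bp long in MDA-MB-231 replicate 2, 13413 bp in Hs578T replicate 1 and 13451 bp in Hs578T replicate 2. The peak ran from about 2.0 to 2.2 kb before the start to 11.2 to 11.4 kb after it and covered the gene body completely in all 3 lists. Only 73, 113 and 76 genes had a wider promoter peak in these lists, out of 11595, 11629 and 11264 with one. Its fold enrichment was 17.8, 15.1 and 12.1, at the 93.2nd, 90.8th and 89.3rd percentile of each list, so the peak was both long and strong. Upstream, the stretch from about 22.8 to 8.9 kb before the start was 1 peak of 13820 bp in Hs578T replicate 1, but 2 peaks of 2007 and 10460 bp in MDA-MB-231 replicate 2 and of 5770 and 6393 bp in Hs578T replicate 2. The strongest piece reached a fold enrichment of 22.1, 18.7 and 20.8. A further peak of 3074 to 3387 bp lay over the start of TRDMT1, a neighbouring gene. The 100 kb after VIM held no peak beyond the end of the promoter peak.

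CD44 encodes the cell-surface receptor for hyaluronan. Its promoter peak was 7444, 7269 and 7096 bp long in MDA-MB-231 replicate 2, Hs578T replicate 1 and Hs578T replicate 2. Fold enrichment there was 9.11, 9.09 and 8.41, at the 71.9th, 75.4th and 77.2nd percentile. CD44 had the most covered bases of the 9 windows, 43627, 44827 and 44071 bp in 15, 18 and 15 peaks. The strongest peaks lay upstream rather than at the start. The peak from 57.9 to 53.9 kb before the start had a fold enrichment of 31.4 in MDA-MB-231 replicate 2, 27.6 in Hs578T replicate 1 and 23.6 in Hs578T replicate 2, and the one from 28.9 to 26.2 kb before the start had 24.1, 23.5 and 23.2. Inside the gene, a peak of 7909, 6002 and 5129 bp in the first part of the gene body had a fold enrichment of 12.6, 10.8 and 10.7.

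FN1 encodes fibronectin, a major matrix glycoprotein bound by integrins. Its promoter peak was 4417, 4430 and 4207 bp long, with a fold enrichment of 11.0, 10.2 and 8.78, close to the 79th percentile in each list. Apart from it, the largest peak lay 96.9 to 91.4 kb upstream and spanned 5480, 5125 and 4452 bp, with a fold enrichment of 12.7, 11.0 and 10.6. Only 9.58%, 8.88% and 9.28% of the FN1 gene body was covered.

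THBS1 encodes thrombospondin 1, a secreted glycoprotein that regulates adhesion and TGF-beta activation. It was the marker whose promoter peak differed most in width between the large lists, at 5579 bp in MDA-MB-231 replicate 2 against 20122 and 19592 bp in the Hs578T lists. In Hs578T a single peak ran from the promoter to near the end of the gene and covered 95.2% and 93.1% of the gene body. In MDA-MB-231 replicate 2 the promoter peak ended 3.2 kb after the start and had a fold enrichment of 22.8, at the 97.2nd percentile. A separate peak of 7032 bp began 8.8 kb after the start there and had a fold enrichment of only 3.31, so that 55.5% of the gene body was covered. The single Hs578T peaks had a fold enrichment of 10.6 and 9.73, at the 80.9th and 82.6th percentile. In width, 741 genes exceeded THBS1 in MDA-MB-231 replicate 2, but only 42 and 27 did in Hs578T. The difference was not tested, because MDA-MB-231 had 1 usable list. Downstream, peaks near 43, 48, 60 and 76 kb after the start, within the neighbouring gene FSIP1, were found in all 3 large lists, and the one near 43 kb had a fold enrichment of 14.5, 12.9 and 12.8.

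LOX encodes lysyl oxidase, which crosslinks collagen and elastin. Its promoter peak was 2557, 2663 and 2525 bp long, with a fold enrichment of 5.84, 5.88 and 4.98, near the middle of each list. The other peaks in the LOX window had a fold enrichment between 2.54 and 9.15, and the strongest lay 108 kb after the start, within SRFBP1, with a fold enrichment of 7.89, 9.15 and 9.04. TNC encodes tenascin C, a matricellular glycoprotein of wounds and tumour stroma. Its promoter peak was narrow, at 1489, 1555 and 1474 bp, below the median of all genes, but had a fold enrichment of 11.8, 11.8 and 8.88, at the 81.7th, 84.4th and 79.3rd percentile. A peak from 40.0 to 38.3 kb before the TNC start had a fold enrichment of 11.9 in MDA-MB-231 replicate 2, 16.7 in Hs578T replicate 1 and 14.1 in Hs578T replicate 2. LOX and TNC thus had a wider, weaker peak and a narrower, stronger one within each list.

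SPARC encodes osteonectin, a collagen-binding matricellular protein. Its nearest peak, 1048, 1418 and 1377 bp long, began 1239, 937 and 1215 bp after the start, so that it fell within 1 kb in Hs578T replicate 1 only, by a margin of less than the spread between the lists. None of these peaks covered the start itself. The strongest peak lay 61.4 to 52.1 kb before the start, at the neighbouring gene ATOX1, and was 9295, 9987 and 9382 bp long with a fold enrichment of 23.2, 28.4 and 22.3, at or above the 97th percentile. A second peak 13.2 to 11.6 kb upstream had a fold enrichment of 12.8, 14.4 and 12.

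CDH2 encodes N-cadherin, the cadherin that typically replaces E-cadherin. No peak lay within 6 kb of its start. The nearest was a 438-bp peak 6499 bp upstream in MDA-MB-231 replicate 2, whereas in the Hs578T lists the nearest lay 26265 and 26202 bp away. Yet the CDH2 window held 15, 13 and 13 peaks covering 21374, 20742 and 21531 bp. The widest, in an intron 60.7 to 65.6 kb after the start, was 4917, 4654 and 4575 bp long with a fold enrichment of 15.9, 13.9 and 11.7. Peaks 28.2 to 26.1 kb upstream (14.8, 15.9 and 12), near 254 kb (20.5, 12.4 and 13.1) and near 331 kb after the start (15.8, 18.5 and 15.8) were likewise strong in all 3 lists. CDH11 encodes cadherin 11, a mesenchymal cadherin first described in osteoblasts. Its window of 382 kb held no peak in MDA-MB-231 replicate 2 and 2 weak peaks in each Hs578T list, one of which lay 263 and 255 bp before the start and was 1418 and 1320 bp long with a fold enrichment of 2.97 and 3.03, near the 15th percentile. Its −log10 q-value was 2.58 and 2.01. The other, of 305 and 213 bp, lay 50.7 kb after the start.

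**Figure D2:**
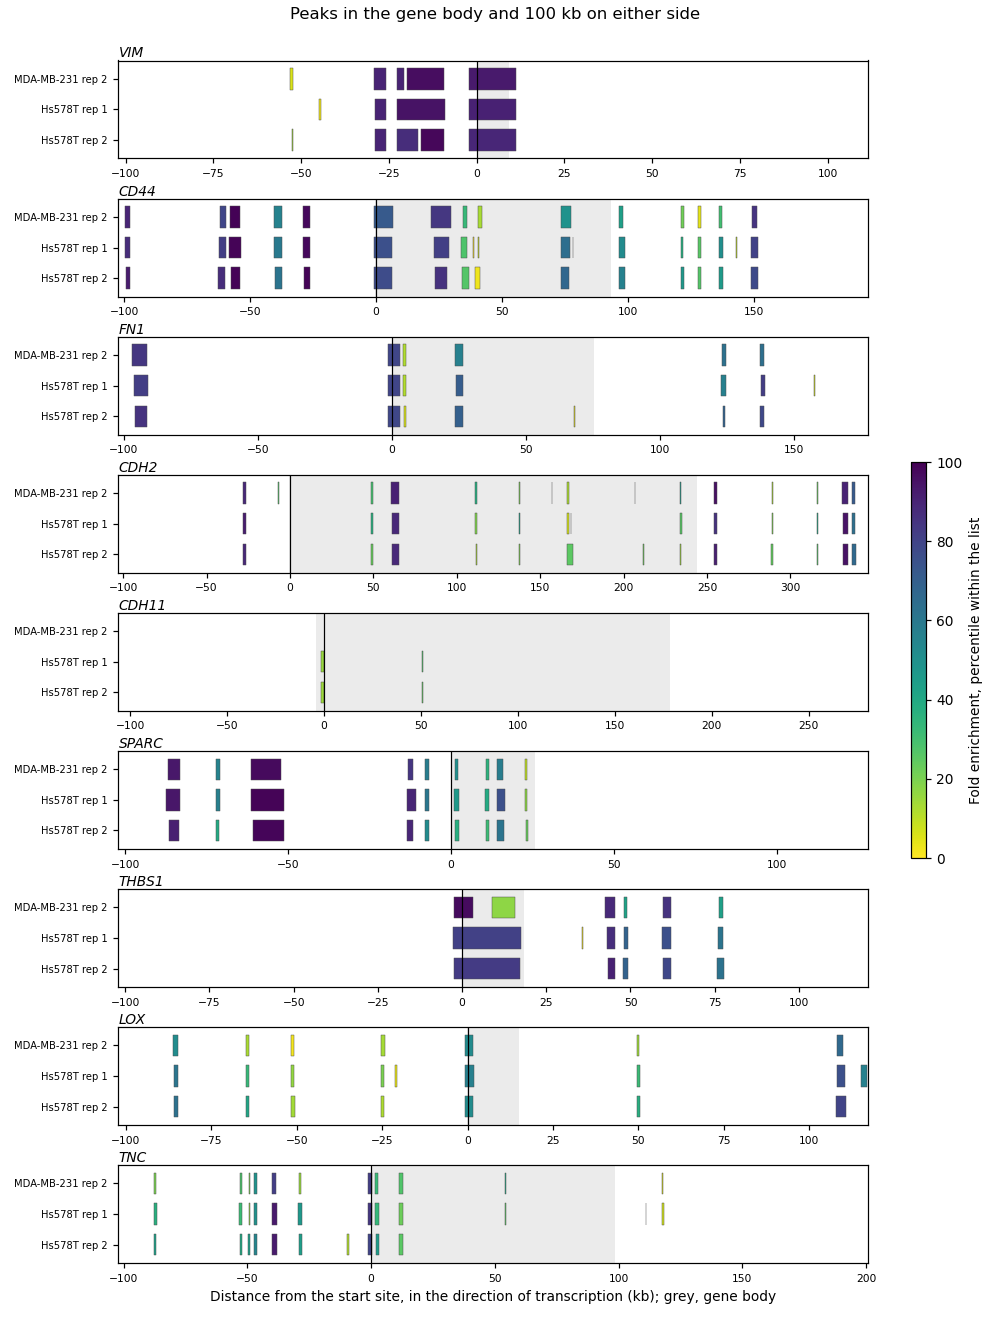
Peaks of the 3 large lists in the window of each gene, plotted to scale by distance from the canonical start (kb, in the direction of transcription). Grey marks the gene body and colour the percentile of fold enrichment within the list. The VIM and THBS1 bodies lie under long peaks, CDH2 has strong peaks away from a bare start, and the CDH11 window is almost empty.

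Over the 9 windows, 2.56 Mb in all, peaks numbered 74 in MDA-MB-231 replicate 2, 80 in Hs578T replicate 1 and 73 in Hs578T replicate 2. They covered 173 kb, 192 kb and 182 kb, or 6.76%, 7.49% and 7.10%. Hs578T had 76.5 ± 4.95 peaks and 187 ± 7.07 kb (SD, n = 2). The MDA-MB-231 list was below both Hs578T lists in covered bases and between them in number of peaks. Covered bases had the same order over the whole lists, at 81.8, 90.7 and 83.9 Mb. The median marker had 6.26%, 6.08% and 5.55% of its window covered, beside a median of 3.96%, 4.37% and 4.0% over all protein-coding genes. CD44 (14.9%, 15.3% and 15%) and VIM (14.3%, 14.7% and 13.9%) were at or above the 91st percentile of all genes in each list. THBS1 (9.10%, 13.1% and 12.6%) and SPARC (9.31%, 11.0% and 9.47%) followed. FN1 (6.26%, 6.08% and 5.55%) was above the median of all genes in each list, at the 66.9th, 62.5th and 62.4th percentile. CDH2 (4.80%, 4.66% and 4.84%) and LOX (4.25%, 4.95% and 4.63%) were only just above it, between the 52.4th and 57.4th percentile. TNC (3.73%, 4.43% and 3.85%) did not differ in a constant direction from the median of all genes, and CDH11 (0%, 0.451% and 0.401%) was the lowest.

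**Figure D3:**
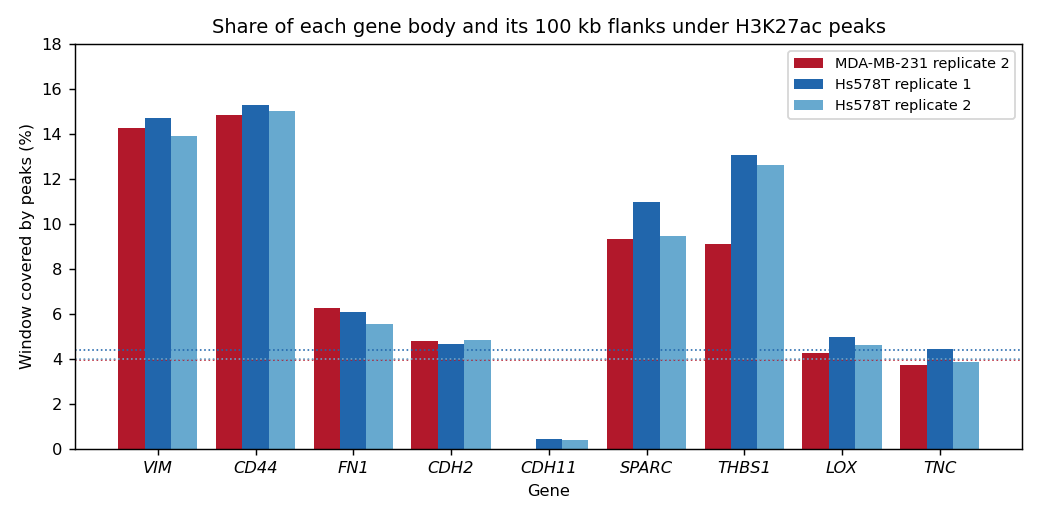
Share of the gene body plus 100 kb on either side that was covered by peaks (%), per gene and large list (bars start at 0). Dotted lines give the median over all protein-coding genes in each list. CD44 and VIM stand highest in every list, THBS1 is lower in MDA-MB-231 replicate 2 than in both Hs578T lists, and CDH11 is near 0.

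Merged over the 3 large lists, the windows held 86 peak regions, of which 67 were found in all 3 lists, 5 in 2 and 14 in a single list. All 9 SPARC regions and 15 of 18 CD44 regions were found in all 3 lists, as against 0 of 2 CDH11 regions. The 14 regions of a single list were short and weak, at most 782 bp long and with a fold enrichment of at most 3.80. In MDA-MB-231 replicate 2, 94.6% of these peaks (95% Wilson interval, 86.9 to 97.9) overlapped a peak of Hs578T replicate 1 and 93.2% (85.1 to 97.1) one of Hs578T replicate 2, beside 94.2% and 91.2% over the whole list. In the reverse direction, 86.3% of the peaks of Hs578T replicate 1 and 93.2% of those of Hs578T replicate 2 overlapped a peak of MDA-MB-231 replicate 2, beside 86.4% and 87.9%. Of the peaks of Hs578T replicate 2, 94.5% (86.7 to 97.8) overlapped a peak of Hs578T replicate 1, beside 93.4% over the whole list. Of those of Hs578T replicate 1, 87.5% (78.5 to 93.1) overlapped a peak of Hs578T replicate 2, beside 88.8%. The intervals cover counting error only, and neighbouring peaks are not independent.

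AP-1 words were read in the peaks because the study named AP-1 among the factors activated by TWEAK. In peaks over 2.5 kb from any start, a word was found in 35 of 57 peaks (61.4%, 48.4 to 72.9) in MDA-MB-231 replicate 2, 36 of 60 (60.0%, 47.4 to 71.4) in Hs578T replicate 1 and 35 of 56 (62.5%, 49.4 to 74.0) in Hs578T replicate 2. Over all such peaks the share was 51.9%, 51.1% and 50.3%, and the median width 1220, 1237 and 1199 bp against 1258, 1276.5 and 1689.5 bp at the markers. Per kb, the marker peaks held 0.463, 0.451 and 0.452 words and all distal peaks 0.473, 0.455 and 0.460. The word was thus more frequent at the markers per peak, with intervals that include the share of all distal peaks, and not per kb. The share per peak rested in part on CD44. Of the CD44 peaks at any distance from a start, 13 of 15, 14 of 18 and 14 of 15 held a word. This was the highest share of the 9 markers in each list, and the share without CD44 was not computed. CD44 had 19 sites in peaks, 16 of them in all 3 large lists, THBS1 and TNC 9 each, VIM and FN1 8 each, CDH2 and LOX 7 each, SPARC 5 and CDH11 0. The strongest CD44 peak, 57.9 to 53.9 kb upstream, held none. A match is a string of letters and not a measured binding site.

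For 7 markers, an AP-1 word is shown, as 31 bases on the gene's strand (hg38) with the word in capitals, so that the DNA under a strong peak away from the start can be read. Of the distal peaks holding a word, the one with the highest percentile of fold enrichment in any large list was taken, and within it the word nearest to the start. Each lay in a peak of all 3 large lists and outside annotated exons. The VIM site lies 10.2 kb and the CD44 site 27.4 kb upstream, the FN1 site 92.4 kb upstream, the CDH2 site 61.8 kb after the start in an intron, the THBS1 site 43.8 kb and the LOX site 108.8 kb after the start within the neighbouring genes FSIP1 and SRFBP1, and the TNC site 39.2 kb upstream.
Positions and strands are VIM chr10:17218059-17218089 (plus), CD44 chr11:35111756-35111786 (plus), FN1 chr2:215528450-215528480 (minus), CDH2 chr18:28115300-28115330 (minus), THBS1 chr15:39624908-39624938 (plus), LOX chr5:121969482-121969512 (minus), TNC chr9:115157320-115157350 (minus).
VIM site: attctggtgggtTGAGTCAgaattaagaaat
CD44 site: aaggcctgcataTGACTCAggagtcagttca
FN1 site: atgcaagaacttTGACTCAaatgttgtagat
CDH2 site: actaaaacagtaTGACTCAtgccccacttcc
THBS1 site: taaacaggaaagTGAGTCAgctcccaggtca
LOX site: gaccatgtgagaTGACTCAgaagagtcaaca
TNC site: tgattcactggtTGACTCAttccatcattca

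Among 39 further genes of the same families and functions, 18 had a promoter peak in all 3 large lists, 1 in some and 20 in none. The share was 48.7%, 48.7% and 46.2% in MDA-MB-231 replicate 2, Hs578T replicate 1 and Hs578T replicate 2, below the 58.1%, 58.2% and 56.4% of all protein-coding genes, and the list was chosen with earlier results known. All 4 of the lysyl oxidase relatives LOXL1 to LOXL4 had a peak, as LOX did. Of 6 cadherins, only CDH4 had one, with CDH1, CDH3, CDH5, CDH6 and CDH13 bare, as was CDH2. Among intermediate filament genes, NES and LMNA had a peak and the muscle gene DES did not. Among hyaluronan genes, the synthase HAS2 and the receptor HMMR had one, but the synthases HAS1 and HAS3 did not. Of the matricellular genes, THBS3, CCN1, CCN2 and TNXB had one, while THBS2, POSTN, SPARCL1 and SPOCK1 had none. Among matrix glycoproteins and proteoglycans, FBN1 had a peak in all 3, VCAN in MDA-MB-231 replicate 2 and Hs578T replicate 1 only (3628 and 3689 bp), and FBLN1, EFEMP1, TGFBI, LUM, DCN, BGN and ELN in none. Of the contractile or invasive genes, TAGLN, S100A4 and FAP had a peak and ACTA2, which encodes smooth muscle actin, did not. Among the widest were LMNA, which encodes lamins A and C (20531, 20325 and 22912 bp), and S100A4, a calcium-binding protein gene (8059, 18903 and 8543 bp). The LMNA peak was wider than that of any of the 9 markers in each large list. The Hs578T replicates differed widely at S100A4, with replicate 2 close to MDA-MB-231 replicate 2.

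**Figure D4:**
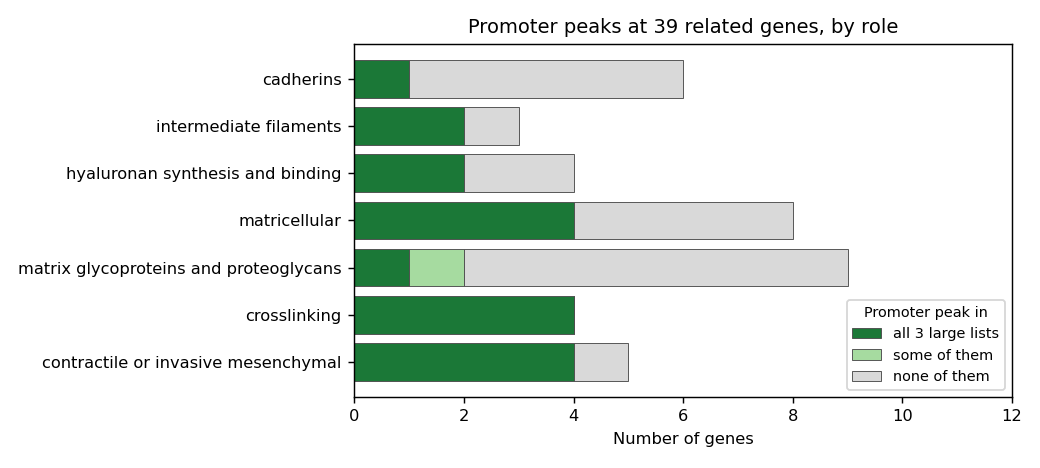
Number of related genes with a promoter peak in all 3 large lists, in some and in none, by role (bars start at 0). All 4 crosslinking genes have one, and most cadherins and matrix glycoproteins have none.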

How the data were processed

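H3K27ac ChIP-seq was performed on 2 libraries each of MDA-MB-231 and Hs578T cells, with group and replicate read from each sample's title. The authors removed adaptors with Trimmomatic, aligned reads to hg38 with Bowtie2, called peaks per library with MACS2 against input, and removed blacklisted regions with bedtools. Versions and MACS2 settings were not given in the sources used here, and broad peak calling is inferred from the 9 columns. The washout is 72 h per the labels, whereas the study's own text states a longer one. The deposited columns hold a score (about 10 times the −log10 q-value), a fold enrichment, which is a ratio to the background, and the −log10 of p and of q, all as the authors deposited them. Because input was subtracted, peaks depend on the input libraries too, and lists called separately move with depth, which is unknown.

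Start sites and gene bodies came from GENCODE release 44 (Ensembl canonical transcripts). A promoter peak overlapped the 1 kb on either side of the start. Windows were gene bodies plus 100 kb on either side, and distal peaks lay over 2.5 kb from every start of any gene. Overlap meant at least 1 bp. Large lists were those with over 10000 peaks. Named genes were the 9 members, markers of other cell types, and, of 39 related genes, those without a promoter peak in at least 1 large list and the 3 widest by mean; others were named after their values were seen, and some of the genes on these lists are not reported here. Members and lists were chosen with earlier results of these data known. Intervals are 95% Wilson intervals. Scripts used Python 3.11.15, numpy 2.4.6, pandas 2.3.3, scipy 1.17.1 and matplotlib 3.10.9, and interval and motif counting were tested on simulated data. Promoter sequences came from RefSeq (GRCh38.p14).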

Additional observations from a re-analysis of the deposited data

How the results depend on the processing

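The results are counts, widths and shares without a direction, so a change of direction under the alternatives could not be scored. No paired analysis was possible because no result comes from a test. Of 93 alternative values for 14 results, 69 moved by less than the replicate spread, or by less than 1.5 times for a count, and 24 moved by more. Where MDA-MB-231 had 1 list with a value, the Hs578T spread was used, and for overlap between the Hs578T lists the Wilson interval. For covered bases in MDA-MB-231 the spread was 123 kb, between an empty and a full list, so 0 and 173 kb both counted as within it. These counts are thus not a measure of stability. Leaving out each MDA-MB-231 replicate gave 0 to 6 markers with a promoter peak (mean 3), 0 to 74 peaks (mean 37) and 0 to 173 kb (mean 86.7), so that replicate 1 sets the mean of that line. Leaving out each Hs578T replicate gave 7 to 8 markers, 73 to 80 peaks and 182 to 192 kb. Within 10 kb of the gene bodies, peaks fell to 32 in MDA-MB-231 replicate 2, 33 in Hs578T replicate 1 and 32 in Hs578T replicate 2. Among the strongest 50% of each list they fell to 37, 41 and 40. The line means at these settings were 16 and 18.5 in MDA-MB-231, with the empty replicate 1 counted in, and 32.5 and 40.5 in Hs578T. Covered bases in Hs578T were 138 kb with 50 kb flanks, 91.4 kb with 10 kb flanks, 177 kb without peaks at starts of other protein-coding genes and 153 kb among the strongest 50%. Median promoter width was 4417 bp in MDA-MB-231 with a promoter window of 2.5 kb, and 5750.5 bp in Hs578T among the strongest 50%, where CDH11 and SPARC drop out. AP-1 words were found in 38.6% (MDA-MB-231) and 37.1% (Hs578T) of distal peaks when the central 500 bp were read, in 80.0% and 77.2% among the strongest 50%, and in 64.8% and 64.1% at −log10 q of at least 2. Over all distal peaks of the large lists, the share at these settings was 30.4% to 32.0%, 66.4% to 67.5% and 54.3% to 55.2%. Overlap of MDA-MB-231 replicate 2 with Hs578T was 93.9%, and became 92.6% with 50 kb flanks, 86.5% when at least 50% of both peaks had to overlap, 95.9% among the strongest 50% and 92.1% at −log10 q of at least 2. A promoter window of 2.5 kb brought in SPARC in all 3 large lists, and 0.5 kb removed it. The width at THBS1 stayed at 5579 bp in MDA-MB-231 under each setting, including the merging of peaks within 1 kb, which was chosen after seeing the data. None of these settings could have changed it. The peak spans the start and, at the 97.2nd percentile and a −log10 q of 93.6, passes every filter. It ended 3.2 kb after the start, and the next peak began at 8.8 kb. For MDA-MB-231 replicate 1 alone, widths, AP-1 shares and overlap gave no value.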

Other observations

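The windows also held starts of other genes and transcripts. Of 29 lncRNA starts, 11 had a peak within 1 kb in all 3 large lists and 16 in none. The share over all lncRNA starts was not computed, and some of the 11 had only the promoter peak of a marker. Of the 9 other protein-coding starts, 5 had a peak in all 3 and 4 in none, beside 58.1%, 58.2% and 56.4% of all protein-coding genes per list. The lncRNAs VIM-AS1 and FN1-DT start under the promoter peak of the marker beside them, and CD44-DT starts 1139 bp before CD44, outside its promoter peak but within 1 kb of it. THBS1-AS1 starts 7803 bp inside the THBS1 locus and lay under the single peaks of 20122 and 19592 bp in Hs578T. In MDA-MB-231 replicate 2 it had a peak of 7032 bp within 1 kb, separate from the THBS1 promoter peak. That peak began 8791 bp after the THBS1 start and so did not cover the THBS1-AS1 start. It was weak, with a fold enrichment of 3.31, at the 17.0th percentile. CD44-AS1, which starts 75814 bp after the CD44 start, had a peak of 3801, 3644 and 3154 bp in MDA-MB-231 replicate 2, Hs578T replicate 1 and Hs578T replicate 2. CLMAT3, inside SPARC, had one of 952, 1097 and 976 bp. The lncRNA ENSG00000227279, 255579 bp after the CDH2 start, had a peak of 1628, 2017 and 1508 bp, with a fold enrichment of 20.5, 12.4 and 13.1, while the CDH2 start had none. Of 20 further annotated starts of the 9 markers themselves, 14 had a peak in all 3 large lists. These 14 share the promoter peaks already described for VIM, CD44, FN1, LOX and TNC, so they add no further peak. Another 4 had a peak in none, and these 4 belonged to CDH2 and TNC. The share over all annotated starts was not computed. The genes in this section were chosen after their values were seen.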
